A study of Mus musculus with 19 samples.

Results

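NADPH oxidases transfer electrons from NADPH to oxygen, superoxide dismutases turn the superoxide formed into hydrogen peroxide, and catalase removes hydrogen peroxide. Transcripts of 9 genes of this chain were followed in the suprarenal abdominal aorta (SRA) of the mouse: Nox4 and Cybb, which encode the catalytic subunits NOX4 and NOX2, Cyba, the membrane partner of both, Ncf1 and Ncf4, cytosolic subunits of the NOX2 enzyme, Sod1, Sod2 and Sod3, the cytosolic, mitochondrial and extracellular superoxide dismutases, and Cat, catalase. The genes were taken by name, with earlier results of these data known, and were 9 of 20408 genes in the table. All 9 had enough reads to be tested, along with 14845 genes in total. They were measured by bulk RNA-Seq in 19 male mice on a C57BL6 background, all of them ApoE-/-, carriers of SMA-CreERT2 and treated with tamoxifen. SMA-CreERT2 is a tamoxifen-inducible Cre recombinase driven by the promoter of smooth muscle actin, so that the deletion was directed to smooth muscle cells and other cells of the aorta kept the gene. IKKβ-/- mice additionally carried Ikbkb Flox/Flox alleles, and IKKβ+/+ mice were their littermates without them. Ang II or saline was infused by osmotic pump for 24 h in mice on a chow diet. This gave 5 saline-infused and 5 Ang II-treated IKKβ+/+ mice, and 4 saline-infused and 5 Ang II-treated IKKβ-/- mice. The labels give an age of 8 weeks. In the paper this is the age at the start of tamoxifen, which was followed by a rest before the infusion, so the mice were older when infused. The labels give the dose of Ang II as a range of 500 to 1000 ng/min/kg, of which the upper end is the dose that the methods name for RNA-Seq.

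In vessels, NOX4 is the oxidase of smooth muscle, endothelial cells and fibroblasts, and makes mainly hydrogen peroxide without cytosolic subunits. NOX2 is best known as the oxidase of phagocytes, without being confined to them, and needs the cytosolic subunits, among them the products of Ncf1 and Ncf4, to be switched on. Ang II is a classical activator of vascular NADPH oxidases, IKKβ is the kinase that activates canonical NF-κB, and Sod2 and Cybb are known NF-κB target genes.

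At 24 h, none of the 9 genes passed the threshold for an Ang II effect in either genotype. Cybb alone passed in a genotype comparison, being 42% lower in saline-infused IKKβ-/- than in saline-infused IKKβ+/+ mice. The threshold, applied to a limma fit over all genes tested, was a fold change of more than 1.2 together with an adjusted p below 0.1. Over all genes, 8.66% passed for Ang II in IKKβ+/+ mice, 5.29% in IKKβ-/- mice and 5.47% between the saline-infused genotypes. Counts of 0 and 1 among 9 genes lie near these shares. Cybb had an adjusted p of 0.0579 in limma, and its call was kept in 14 of the 19 fits that left out a mouse.

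With Ang II in IKKβ+/+ mice, 0 of the 9 genes passed, against 8.66% of all genes tested (4.33% higher and 4.33% lower), and the median log2 fold change was -0.02 over the members and 0.0056 over all genes. An unadjusted p under 0.05 was seen for 2 members (Cybb and Ncf1) and for 20.3% of all genes, edgeR called 0 and DESeq2 called 1 (Cybb). With Ang II in IKKβ-/- mice, 0 of 9 passed, against 5.29% of all genes (2.59% higher and 2.69% lower), the medians being -0.02 and -0.0029. Here 1 member (Cat) had an unadjusted p under 0.05, as did 17.8% of all genes, and both edgeR and DESeq2 called it. Between the genotypes with saline, 1 of 9 passed, as lower in IKKβ-/- mice, against 5.47% of all genes (3.4% higher and 2.07% lower), and the medians were -0.26 and -0.02. Between the genotypes with Ang II, 0 of 9 passed, against 0.128% of all genes (0.0202% higher and 0.108% lower). In this comparison 4 members (Ncf1, Ncf4, Sod3 and Cat) had an unadjusted p under 0.05, as did 14.3% of all genes, edgeR and DESeq2 called 0, and the medians were -0.0028 and -0.0064. The test of whether the Ang II effect differed between the genotypes was passed by 0 members and 0% of all genes in limma. At an unadjusted p under 0.05 such a difference was seen for 1 member (Cat) and 1654 genes (11.1%), and edgeR called 3 genes and DESeq2 279, among them 0 members.

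The groups compared did not overlap for 1 member with Ang II in IKKβ+/+ mice (Ncf1, against 8.42% of all genes), for 1 with Ang II in IKKβ-/- mice (Cat, against 5.29%), for 3 between genotypes with saline (Cybb, Sod1 and Sod3, against 8.76%) and for 0 between genotypes with Ang II (against 1.54%). Each member was also compared over mice in the 4 group comparisons by two-sided exact permutation tests, 36 in all. Of these, 6 gave p under 0.05, and 0 remained under 0.1 after Benjamini-Hochberg adjustment over the 36, the smallest adjusted value being 0.114. With 5 mice against 5, the smallest p possible is 0.00794. With 5 against 4, the members without overlap (Cybb, Sod1, Sod3 and Cat) each gave 0.0159. A single member at such a p could not reach an adjusted value under 0.1 over 36 tests. The count of 0 therefore does not speak against a difference in any 1 member.

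**Figure D1:**
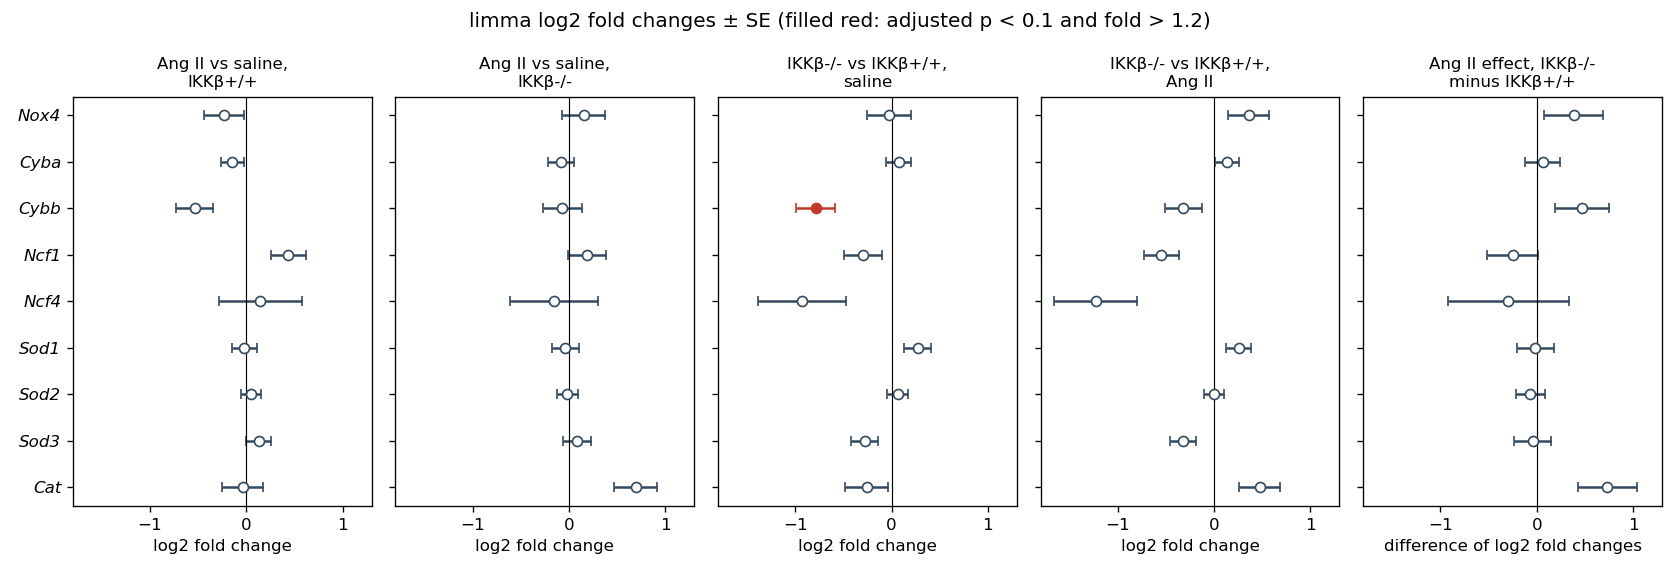
Log2 fold changes from limma with their standard errors (x axis) for the 9 genes (y axis) in the 4 group comparisons and for the difference of the Ang II effects. The only filled point is Cybb in saline-infused mice (-0.79), and the widest error bars are those of Ncf4.

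Depth was between 11382573 and 19906694 reads on genes per mouse. Mouse numbers run in a separate block for each group and the labels name no batch, and an effect of rearing, surgery or library preparation by group cannot be told apart from the group itself. Ikbkb itself had 594 to 791 normalized counts in saline-infused and 685 to 779 in Ang II-treated IKKβ+/+ mice, and 439 to 586 and 430.2 to 672 in the corresponding IKKβ-/- groups, lower than in every IKKβ+/+ mouse of the same treatment. The 7 smooth muscle markers (Acta2, Myh11 and others) were present in every mouse, with a summed level of 305181 to 634959 normalized counts. Of 9 clock genes that peak toward evening, 8 were higher and 0 lower in IKKβ-/- than in IKKβ+/+ mice with saline. Of 3 clock genes of the opposite phase, 3 were lower, and both shifts touch every genotype comparison with saline below. Within IKKβ-/- mice, 7 of the 9 were lower and 3 of the 3 higher with Ang II than with saline. The Ang II comparison in IKKβ-/- mice and the difference of the Ang II effects are therefore touched as well. In bulk tissue, fewer cells of a type and less RNA per cell cannot be told apart.

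The members covered a wide range of levels. Per kilobase of the transcript used (GENCODE, GRCm38), Sod1 had 2647 and Sod3 2349.9 normalized counts per kb over the 19 mice, Nox4 had 1506, Cyba 609 and Cat 518, followed by Sod2 with 128. The catalytic and cytosolic subunits of NOX2 lay lowest, with 51.8 for Ncf1, 47.3 for Cybb and 18.3 for Ncf4. Levels per kb rest on 1 transcript length for each gene, from 641 bases for Sod1 to 5861 for Sod2. Which transcripts were in use was not tested. Nox4 was the main catalytic subunit of the pair in every mouse: its level per kb was 35 ± 14.1 times that of Cybb (SD, n = 19), from 15.6 to 74.6 times. This ratio was 23.6 ± 6.61 in saline-infused (SD, n = 5) and 30.3 ± 12.2 in Ang II-treated IKKβ+/+ mice (SD, n = 5), and 39.5 ± 6.99 (SD, n = 4) and 47.4 ± 16.3 (SD, n = 5) in IKKβ-/- mice, groups whose ranges overlapped in part. Cyba, which serves both oxidases, was 14.1 ± 4.42 times as high per kb as Cybb and below Nox4, whose level was 2.49 ± 0.58 times that of Cyba (SD, n = 19).

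**Figure D2:**
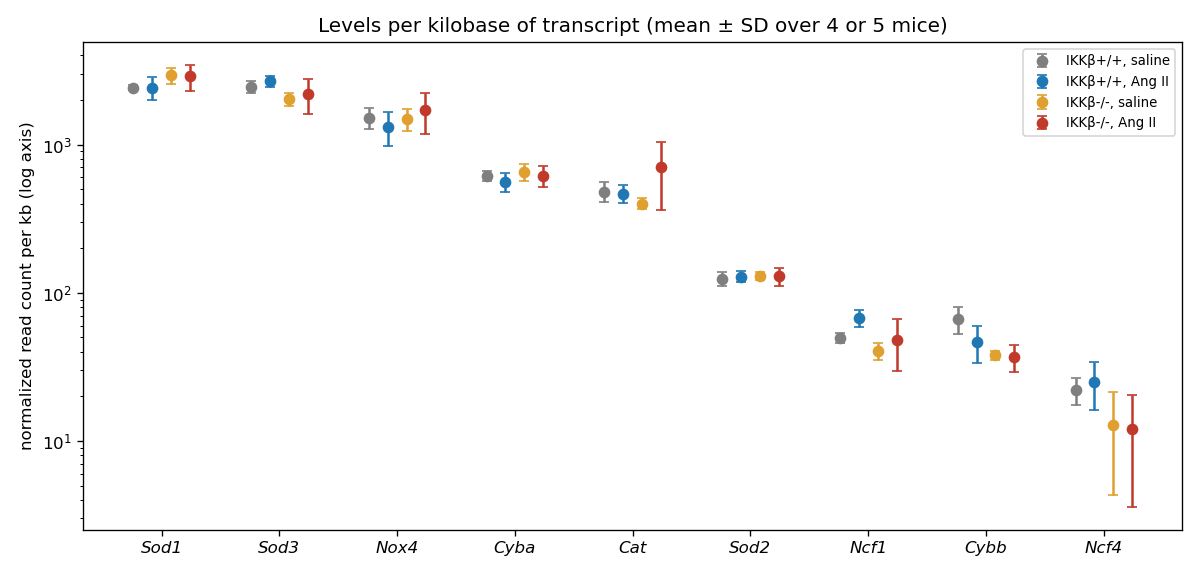
Normalized read count per kb of transcript on a log axis (y axis) for the 9 genes (x axis), as mean ± SD of each group of 4 or 5 mice. Sod1 and Sod3 lie highest, and Ncf1, Cybb and Ncf4 lowest.

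On GRCm38 the genes lie at chr7:87246096-87398710 (Nox4, plus strand), chr8:122424776-122432930 (Cyba, minus), chrX:9435252-9487771 (Cybb, minus), chr5:134220053-134229625 (Ncf1, minus), chr15:78244801-78262580 (Ncf4, plus), chr16:90220754-90226329 (Sod1, plus), chr17:13006846-13040063 (Sod2, plus), chr5:52363791-52371418 (Sod3, plus) and chr2:103453849-103485160 (Cat, minus). Genes on the opposite strand overlap Ncf1 (Gtf2ird2), Sod1 (Scaf4) and Cyba (Gm20388). The libraries were stranded, but whether the counting used the strand is not given in the sources used here, so reads of these pairs may not be separated.

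RefSeq promoters (GRCm38.p6) were at hand for 7 of the 9 members, all but Ncf4 and Sod3. The 250 bases before the start are shown for Cybb, the member that passed in the genotype comparison, for Sod2, a known NF-κB target whose level hardly moved, and for Cat, the member with the largest Ang II difference. Capitals mark matches, on either strand, to the TATA box (TATAAA), the CCAAT box (CCAAT), the GC box (GGGCGG), an AP-1 motif (TGANTCA), a PU.1-type motif (GAGGAA) and the κB motif, where neighbouring matches run together. The windows are chrX:9469325-9469574 (minus strand) for Cybb, chr17:13007589-13007838 (plus strand) for Sod2 and chr2:103485154-103485403 (minus strand) for Cat.
Cybb: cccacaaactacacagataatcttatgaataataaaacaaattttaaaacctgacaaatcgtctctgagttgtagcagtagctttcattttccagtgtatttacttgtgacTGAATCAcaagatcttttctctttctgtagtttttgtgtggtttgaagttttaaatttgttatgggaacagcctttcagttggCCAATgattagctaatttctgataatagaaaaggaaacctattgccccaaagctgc
Sod2: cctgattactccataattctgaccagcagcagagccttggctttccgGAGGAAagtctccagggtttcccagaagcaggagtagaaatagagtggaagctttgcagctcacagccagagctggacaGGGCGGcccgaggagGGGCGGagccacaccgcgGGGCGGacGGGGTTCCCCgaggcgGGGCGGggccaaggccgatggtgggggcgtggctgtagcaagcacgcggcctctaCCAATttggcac
Cat: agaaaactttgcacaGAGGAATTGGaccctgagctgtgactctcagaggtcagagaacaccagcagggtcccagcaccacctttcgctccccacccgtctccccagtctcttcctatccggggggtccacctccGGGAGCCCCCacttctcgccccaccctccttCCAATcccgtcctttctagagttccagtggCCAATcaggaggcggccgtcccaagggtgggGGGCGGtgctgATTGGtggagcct

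The Cybb window was poor in G and C (34%) and held 1 CG dinucleotide, with 1 CCAAT box and 1 AP-1 match and no GC box. The Sod2 window had 63.6% G and C, 15 CG dinucleotides, 4 GC boxes and 1 κB match found on both strands. The Cat window had 62% G and C, 4 CCAAT boxes, 1 GC box and 1 κB match found on both strands. Among the other members, Sod1 had 4 GC boxes with a TATA box and a CCAAT box, Cyba had 2 GC boxes, and Nox4 and Ncf1 had 1 each. Over all 32851 windows of this length, 12.4% held a TATA box, 33.8% a CCAAT box, 32.7% a GC box, 6.75% the AP-1 motif, 23.3% the PU.1-type motif and 7.25% the κB motif. Such matches describe the letters and do not mark bound sites.

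**Figure D3:**
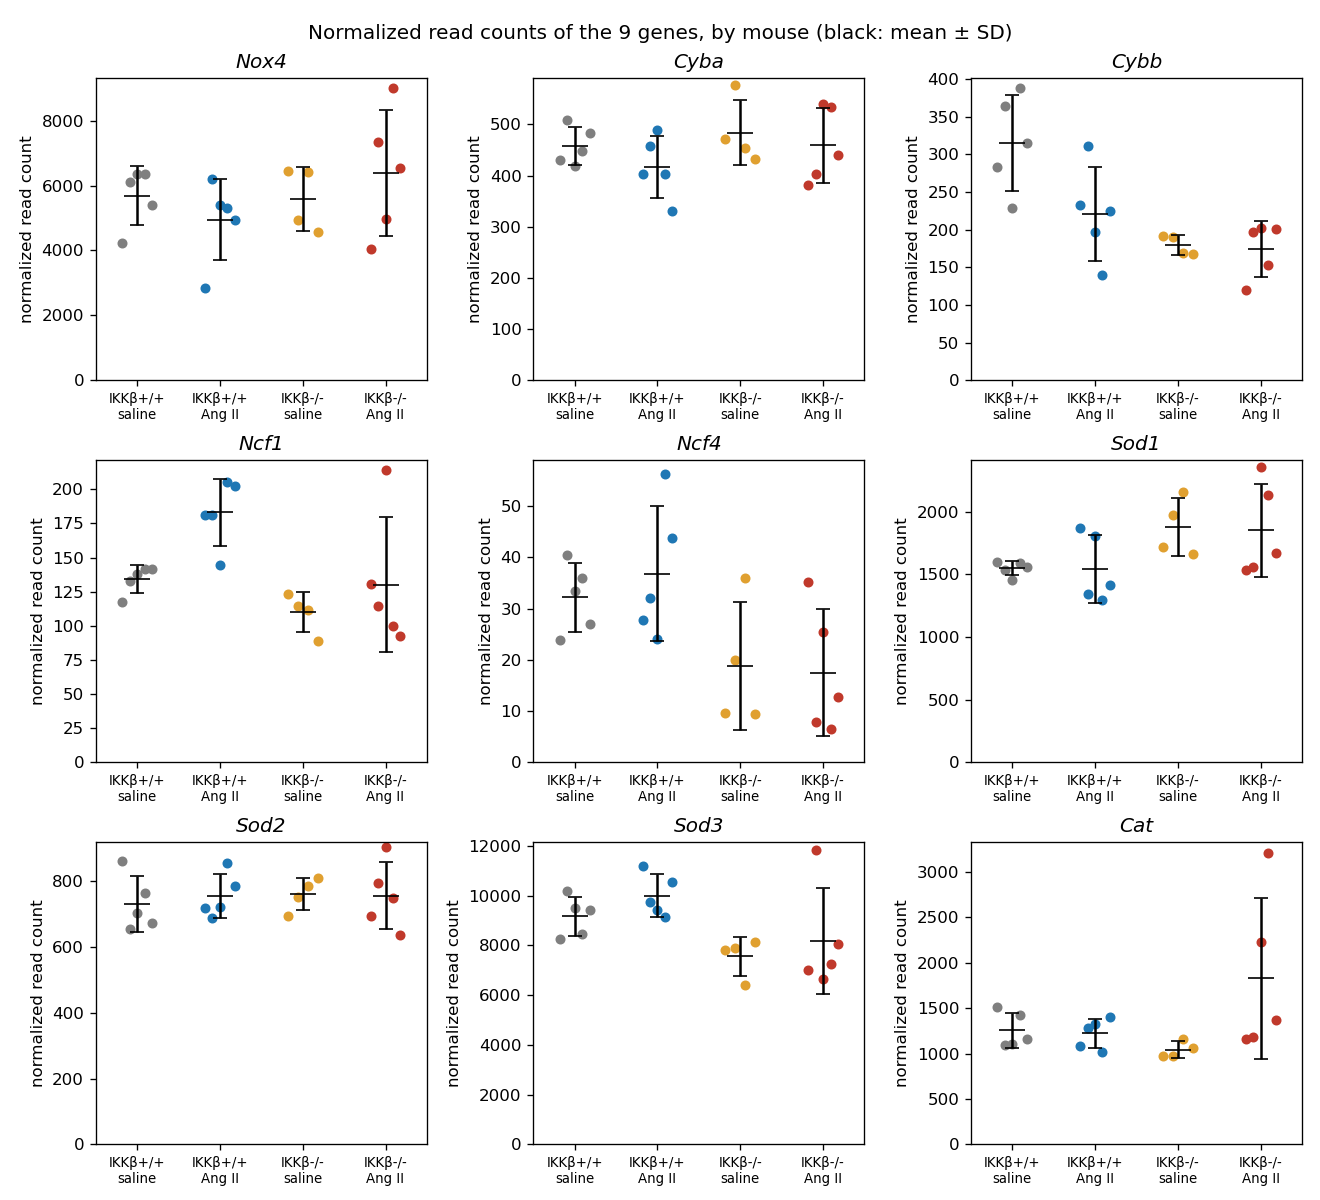
Normalized read count (y axis, from 0) of each of the 9 genes in every mouse of the 4 groups (x axis), with the mean ± SD in black. Cybb lies below all saline-infused IKKβ+/+ mice in the 4 saline-infused IKKβ-/- mice, and Cat is high in 2 of the 5 Ang II-treated IKKβ-/- mice.

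When the 4 group means of a member were put in order, most neighbours differed by less than the larger of their SDs. The exceptions were Cybb, higher in saline-infused than in Ang II-treated IKKβ+/+ mice, Ncf1, higher in Ang II-treated than in saline-infused IKKβ+/+ mice, Ncf4, higher in saline-infused IKKβ+/+ than in saline-infused IKKβ-/- mice, and Cat, higher in Ang II-treated IKKβ+/+ than in saline-infused IKKβ-/- mice.

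Nox4 had 4219, 6121, 6353, 6362 and 5387 normalized counts in saline-infused IKKβ+/+ mice and 2857, 6197, 5407, 5312 and 4950.0 in Ang II-treated IKKβ+/+ mice. In IKKβ-/- mice it had 6439, 4928, 6405 and 4579.8 with saline and 4058, 7347, 4972, 8991 and 6531 with Ang II. All 4 groups overlapped, and both the lowest and the highest mouse had received Ang II. With Ang II, the log2 fold change was -0.23 ± 0.21 (SE) in IKKβ+/+ mice (adjusted p = 0.58 in limma) and 0.15 ± 0.22 in IKKβ-/- mice (adjusted p = 0.785). Neither difference exceeded the spread between mice, and no neighbouring groups in the order of means differed beyond their SD.

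Cyba, whose product stabilizes both catalytic subunits, was among the more even genes. It ranged from 331 to 577 normalized counts over the 19 mice, with group means of 458 ± 36.9 (SD, n = 5) and 417 ± 60.6 (SD, n = 5) in saline-infused and Ang II-treated IKKβ+/+ mice, and of 484 ± 64.2 (SD, n = 4) and 459 ± 73.2 (SD, n = 5) in IKKβ-/- mice. Its log2 fold changes lay between -0.14 and 0.14 in the 4 group comparisons.

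Cybb had 283, 364, 228, 387 and 315 normalized counts in saline-infused IKKβ+/+ mice, and 192, 189.6, 169 and 168 in saline-infused IKKβ-/- mice. All 4 IKKβ-/- mice were below all 5 IKKβ+/+ mice. The log2 fold change was -0.79 ± 0.21 (SE, limma, adjusted p = 0.0579), with p = 0.0159 in the two-sided exact permutation test. In Ang II-treated mice Cybb had 232, 312, 196, 139 and 225 normalized counts in IKKβ+/+ and 120.1, 197, 203, 153 and 201 in IKKβ-/- animals, which overlapped (log2 fold change -0.32 ± 0.19, adjusted p = 0.461 in limma). In IKKβ+/+ mice it was at 221 ± 62.5 with Ang II (SD, n = 5) against 316 ± 63.7 with saline (SD, n = 5), a log2 fold change of -0.53 ± 0.19 that missed the threshold (adjusted p = 0.117 in limma). With DESeq2 it passed, at an adjusted p of 0.0851. In IKKβ-/- mice the log2 fold change with Ang II was -0.07 ± 0.21 (adjusted p = 0.908 in limma). The test of the difference between these effects gave 0.47 ± 0.28 (adjusted p = 0.533 in limma).

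Macrophage markers moved in the same direction as Cybb between the saline-infused groups, and so did markers of other cell types. The medians were -0.87 for 6 endothelial, -0.49 for 6 fibroblast, -0.60 for 4 neutrophil and -2.11 for 7 adipocyte markers. In each of these lists 0 were above 0 and 0 passed, while the median of the 7 smooth muscle markers was 0.24. Of 14 macrophage markers, 2 passed as lower in IKKβ-/- mice (Adgre1, log2 fold change -1.02, and Cd68, -0.93) and 0 as higher, the median over the 14 was -0.60, and none was at 0 in all mice. Their summed level was 10720 to 13804 normalized counts in saline-infused IKKβ+/+ and 7472 to 10514 in saline-infused IKKβ-/- mice. With the macrophage score (the mean log2 deviation of these markers in each mouse) as a covariate, the log2 fold change of Cybb between the saline groups was -0.54 and no longer passed (adjusted p = 0.262 in limma). With the adipocyte score it was -0.74 (adjusted p = 0.128) and with the clock score -0.97 (adjusted p = 0.68). The call was kept in 14 of the 19 fits that left out a mouse, and was lost without IKKβ+/+ mouse X2370, X2372 or X2376 or IKKβ-/- mouse X2403 or X2406, with adjusted p-values up to 0.174 and log2 fold changes of -0.71 to -0.82 in those 5 fits.

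**Figure D4:**
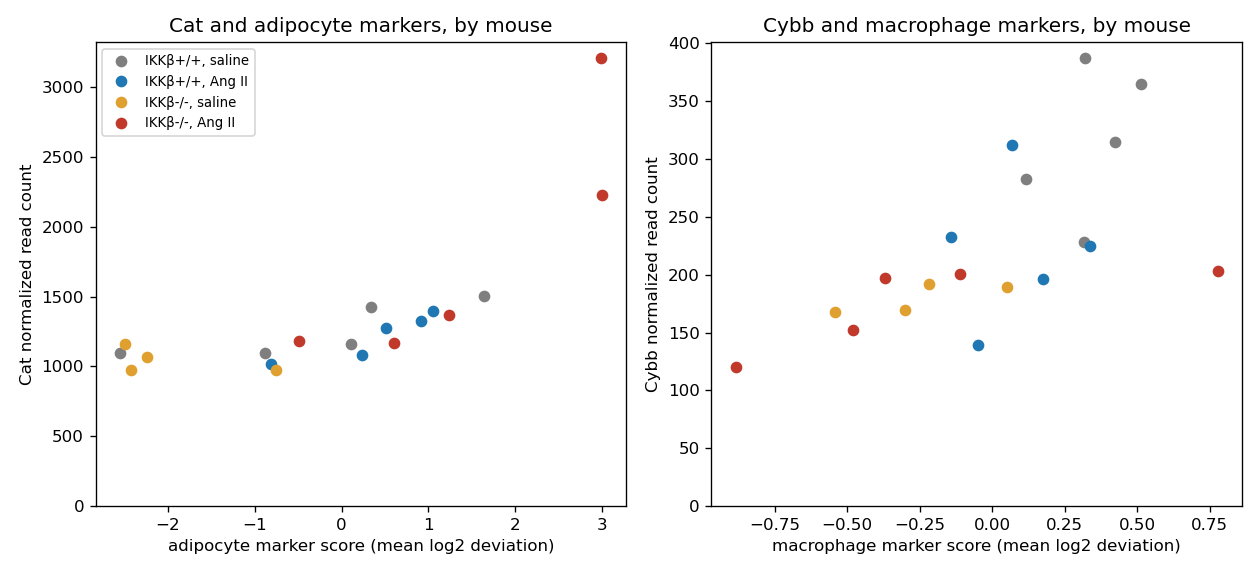
Normalized read counts (y axes) of Cat against the adipocyte score (left) and of Cybb against the macrophage score (right), each point being a mouse and each score a mean log2 deviation over marker genes (x axes). The mice with 2229 and 3209.9 counts of Cat are those with the highest adipocyte scores.

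Ncf1, the organizing subunit whose phosphorylation starts assembly of the NOX2 enzyme, had 118, 133, 138, 141 and 142 normalized counts in saline-infused IKKβ+/+ mice and 181, 181, 145, 205 and 203 in Ang II-treated IKKβ+/+ mice. Each Ang II-treated mouse was above each saline-infused mouse. This was a log2 fold change of 0.44 ± 0.18 (SE, limma), with an adjusted p of 0.185 and an exact permutation p of 0.00794, the smallest possible. It passed when only these 2 groups were fitted (adjusted p = 0.0547), with array quality weights (0.0559), with the macrophage score as a covariate (0.0845) and without IKKβ-/- mouse X2384 (0.0799). Ncf1 and Cybb thus had log2 fold changes of opposite sign with Ang II in IKKβ+/+ mice, and the ratio of Ncf1 to Cybb per kb was 0.769 ± 0.174 with saline (SD, n = 5) and 1.56 ± 0.599 with Ang II (SD, n = 5). In this comparison the medians of the macrophage markers and of the 4 neutrophil markers tested were -0.24 and 0.76 on the log2 scale, and 0 of either passed. In IKKβ-/- mice, Ncf1 had 124, 115, 112 and 89.3 normalized counts with saline and 130.3, 114, 214, 99.6 and 92.5 with Ang II. These groups overlapped, and the highest value was that of mouse X2384, which also had the highest macrophage score. Between Ang II-treated genotypes, the log2 fold change of Ncf1 was -0.55 ± 0.18 (adjusted p = 0.217 in limma) and the exact permutation p was 0.0635.

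Ncf4 had the lowest read numbers, 4 to 59 reads per mouse. It had over 10 normalized counts in all IKKβ+/+ mice, while 4 of the 9 IKKβ-/- mice were below 10 normalized counts. In IKKβ+/+ mice it had 24, 40.5, 33.5, 36.1 and 27.1 normalized counts with saline and 27.8, 32, 24.1, 56.4 and 43.7 with Ang II. In IKKβ-/- mice it had 9.65, 20, 36 and 9.43 with saline and 35.1, 7.94, 25.4, 6.42 and 12.9 with Ang II. Most IKKβ-/- mice were low, but each IKKβ-/- group held a mouse within the range of the IKKβ+/+ groups. The log2 fold change between genotypes was -0.93 ± 0.46 (SE) with saline (adjusted p = 0.271 in limma) and -1.23 ± 0.43 with Ang II (adjusted p = 0.223). With saline it passed only with array quality weights (adjusted p = 0.0384), and with Ang II only without IKKβ-/- mouse X2380 (0.0947), among the alternatives run. Counting error alone would give a CV of about 25.4% in saline-infused IKKβ-/- mice at these read numbers, against an observed 66.6%.

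Sod1 had 1597, 1539, 1457, 1592 and 1562 normalized counts in saline-infused IKKβ+/+ mice and 1719.8, 1977, 2155 and 1663 in saline-infused IKKβ-/- mice. The IKKβ-/- mice were all above the IKKβ+/+ mice. The difference on the log2 scale was 0.27 ± 0.14 (SE, limma, adjusted p = 0.288), with an exact permutation p of 0.0159. Sod3 showed the opposite order. It had 8259.6, 10187, 9500.3, 8464 and 9412 normalized counts in saline-infused IKKβ+/+ mice and 7802, 7896, 6406 and 8128 in saline-infused IKKβ-/- mice, again without overlap (log2 fold change -0.28 ± 0.14, adjusted p = 0.288 in limma, exact permutation p = 0.0159). Both passed only with the smooth muscle score as a covariate, Sod1 at an adjusted p of 0.0472 and Sod3 at 0.0964. With this score, 1740 genes passed between the saline groups in place of 812. Of the 7 smooth muscle markers, 0 passed in this comparison, and their median log2 fold change was 0.24.

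With Ang II, Sod1 had 1869, 1342, 1808, 1292 and 1412 normalized counts in IKKβ+/+ and 1535, 1562, 2355, 2134 and 1668 in IKKβ-/- mice, which overlapped. Sod3 had 11184, 9724, 9415, 9131 and 10558 in IKKβ+/+ and 7018, 11848, 6654, 7268 and 8037 in IKKβ-/- mice. In 4 of the 5 IKKβ-/- mice Sod3 was below all IKKβ+/+ mice, and mouse X2383 was above all of them. For Sod3 the log2 fold change was -0.32 ± 0.13 (SE, limma, adjusted p = 0.286), and without mouse X2383 it was -0.46 and passed (adjusted p = 0.0811). Ang II itself moved neither gene beyond the spread between mice, with log2 fold changes of -0.02 and -0.04 for Sod1 and of 0.13 and 0.08 for Sod3 in IKKβ+/+ and IKKβ-/- mice.

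The balance between the dismutases can be read per kb. Sod1 made up 48.5 ± 2.61% of the summed level of the 3 dismutases per kb in saline-infused (SD, n = 5) and 46 ± 3.86% in Ang II-treated IKKβ+/+ mice (SD, n = 5), and 57.6 ± 5.09% (SD, n = 4) and 55.5 ± 8.85% (SD, n = 5) in IKKβ-/- mice. Sod3 made up 49 ± 2.93% and 51.5 ± 3.6% in IKKβ+/+, and 39.9 ± 5.04% and 42 ± 8.96% in IKKβ-/- mice. Sod2 stayed at 2.51 ± 0.295% over the 19 mice (SD). These shares are a description and were not tested. They depend on the transcript lengths used, 641 bases for Sod1 and 5861 for Sod2. A shorter Sod2 transcript in use would make its share larger.

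Sod2 was the most even member, from 638 to 904 normalized counts over the 19 mice, a ratio of 1.42 between the highest and the lowest mouse. Its group means were 731 ± 83.8 (SD, n = 5) and 754 ± 66.7 (SD, n = 5) in saline-infused and Ang II-treated IKKβ+/+ mice, and 760.2 ± 49.3 (SD, n = 4) and 756 ± 102 (SD, n = 5) in IKKβ-/- mice. The largest of its 4 group differences was a log2 fold change of 0.06 ± 0.11 (SE, limma) between the genotypes with saline.

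Cat had 1507, 1095, 1099.6, 1424 and 1159 normalized counts in saline-infused and 1084, 1279, 1325, 1018 and 1399 in Ang II-treated IKKβ+/+ mice, with full overlap (log2 fold change -0.04 ± 0.21 SE). In IKKβ-/- mice it had 974, 974, 1162 and 1065 with saline and 1165, 1180.2, 2229, 3209.9 and 1369 with Ang II. All 5 Ang II-treated IKKβ-/- mice were above all saline-infused ones, 2 of them by far and mouse X2380 only narrowly (1165 against 1162). The log2 fold change was 0.69 ± 0.22 (SE) and lay just outside the threshold in limma (adjusted p = 0.104), with an exact permutation p of 0.0159. It passed with edgeR (adjusted p = 0.0684), DESeq2 (0.0183), TMM scaling (0.097) and array quality weights (0.0558). The difference of the Ang II effects between the genotypes was 0.73 ± 0.31 (adjusted p = 0.393 in limma).

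Adipocyte markers moved with Cat in this comparison. All 7 adipocyte markers tested (Adipoq, Plin1, Cidec, Pparg, Fabp4, Cfd and Lipe) were higher in Ang II-treated than in saline-infused IKKβ-/- mice (median 4.04 on the log2 scale), and none was at 0 in all mice. Their summed level was 1229 to 4564 normalized counts with saline and 3234 to 39450 with Ang II, against 1149 to 14053 and 3346 to 8894 in IKKβ+/+ mice. Mice X2384 and X2385, with the highest Cat values, had adipocyte scores of 3 and 2.99, the highest of all 19. Across the 19 mice, which share tissue and dissection, Cat and the adipocyte score correlated with r = 0.80, and with r = 0.73 after the group means were removed. With the adipocyte score as a covariate, the log2 fold change of Cat was -0.06, and without mice X2384 and X2385, an alternative chosen after seeing the data, it was 0.25 (adjusted p = 0.428 in limma). Without both mice, 271 genes passed in this comparison in place of 785. With the adipocyte score as a covariate 6 genes passed, and with the clock score 5. Clock genes thus moved in this comparison too, as given above, and a cause of the Cat values was not tested.

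Genes around this chain were read from lists. Among other NADPH oxidase genes, Noxo1, Rac1, Rac2, Duox2, Cybc1 and Poldip2 did not pass in any of the 5 limma comparisons, and Nox1, Duox1, Duoxa1 and Duoxa2 had too few reads to be tested. Of 15 genes of hydrogen peroxide removal, thioredoxins and their reductases included, 3 passed as higher with Ang II in IKKβ+/+ mice and 0 as lower. Over all genes tested, 4.33% passed as higher and 4.33% as lower. The log2 fold change was above 0 for 12 of the 15, with a median of 0.20. The 3 were Gpx1, the main cytosolic glutathione peroxidase, Txn1, thioredoxin, and Txnrd1, its reductase. Gpx1 had 3214 ± 244 normalized counts with saline and 5038 ± 425 with Ang II (SD, n = 5 each, adjusted p = 0.0014 in limma). The log2 fold change was 0.52 for Txn1 (adjusted p = 0.006 in limma) and 0.47 for Txnrd1 (adjusted p = 0.0498). With Ang II in IKKβ-/- mice, 0 of the 15 passed, against 5.29% of all genes. That the effect on this list differs between genotypes was not shown, since 0 of the 15 passed in the test of the difference.

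Of 4 genes that deliver copper to the dismutases, Slc31a1, the copper importer, rose with Ang II in IKKβ+/+ mice (log2 fold change 0.70 ± 0.21 SE, adjusted p = 0.061 in limma). It had 375 ± 32.6 normalized counts with saline and 660 ± 338 with Ang II (SD, n = 5 each). These groups overlapped, with 339 to 426 and 398 to 1242 normalized counts. Between the genotypes with saline, Ccs, the copper chaperone of Sod1, was higher in IKKβ-/- mice (325 ± 27.7, SD, n = 4, against 228 ± 32.5, SD, n = 5, adjusted p = 0.0367), in the same direction as the Sod1 difference that did not pass. Atp7a, which loads copper onto Sod3 in the secretory pathway, was lower (132 ± 48.9, SD, n = 4, against 244 ± 66.1, SD, n = 5, adjusted p = 0.0767), in the same direction as the Sod3 difference that did not pass. Of 9 other oxidant-producing enzymes, Nos3, the endothelial nitric oxide synthase, fell with Ang II in IKKβ+/+ mice (log2 fold change -0.95 ± 0.27 SE, adjusted p = 0.0516). Of 6 endothelial markers, 1 (Tek) passed as lower in this comparison, and their median was -0.57 on the log2 scale. The markers did not all fall, since 2 of the 6 had log2 fold changes above 0.

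Of 14 peroxisome genes, the organelle in which catalase works, Abcd2, a fatty acid transporter, was the only one to pass, with a rise in Ang II-treated IKKβ-/- mice (log2 fold change 2.08 ± 0.53 SE, adjusted p = 0.0388 in limma). The median of the 14 was 0.28, next to -0.0029 over all genes, and the adipocyte markers given above moved in the same samples. Of 6 NF-κB feedback targets, Nfkbia, the inhibitor that NF-κB induces, rose with Ang II in IKKβ+/+ mice (0.89 ± 0.18, adjusted p = 0.0107), and Tnfaip3, a feedback inhibitor, was lower in IKKβ-/- than in IKKβ+/+ mice with saline (-0.96 ± 0.23, adjusted p = 0.0512). The list did not move as a whole. With Ang II in IKKβ+/+ mice its median was 0.17, and Tnfaip3 went the other way (198 ± 44.5 against 262 ± 42.2 with saline, SD, n = 5 each). Between the genotypes with saline its median was -0.14, while Nfkbia was higher in IKKβ-/- mice without passing (1083 ± 400, SD, n = 4, against 738 ± 47, SD, n = 5). The NF-κB targets Sod2 and Cybb did not pass with Ang II in IKKβ+/+ mice, where Nfkbia rose, and their log2 fold changes were 0.05 and -0.53.

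The genes whose levels followed each member most closely over the 19 mice (Pearson r of log2 values among 11064 genes, as a description) fell into different neighbourhoods. Those of Cybb were Grn (0.82), Nckap1l (0.81) and Camk1d (0.78), and those of Ncf1 were Mcu (0.79), Dap (0.78) and Cd53 (0.78). Ncf4 was followed by Ikbkb, the gene deleted by design (0.82), and by Fgd3 (0.78). After the group means were removed, the r of Ncf4 was 0.70 with Ikbkb and 0.77 with Fgd3.

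For Nox4 the closest genes were Zfp449 (0.89), Lrrc57 (0.89) and Prxl2c (0.83), and for Cyba Ushbp1 (0.83), Tigd2 (0.82) and Psmb8 (0.81). Sod1 was followed by Fuom (0.91), Ifitm2 (0.87) and Bckdhb (0.85), Sod2 by the mitochondrial genes Atp5a1 (0.78) and Prdx3 (0.73) and by Aco1 (0.73), and Sod3 by the matrix proteoglycan Bgn (0.85), Dchs1 (0.84) and Gbf1 (0.83). Cat was followed by Gpam, an enzyme of triglyceride synthesis (0.93), Car5b (0.92) and Gstz1 (0.91). Among the members themselves, the highest r was that of Ncf1 with Ncf4 (0.67, and 0.57 without group means), followed by Cyba with Sod1 (0.61 and 0.59), and the lowest was that of Sod1 with Sod3 (-0.59, and -0.36 without group means). For the catalytic subunits, Nox4 with Cybb, it was 0.04.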

How the data were processed

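RNA was measured by bulk RNA-Seq in the SRAs of 19 mice. The authors made stranded poly(A) libraries, used Trimmomatic 0.35 to trim the single-end reads and STAR 2.7.1a to align them to GRCm38 and count reads per gene, and normalized these with DESeq2 1.30.1. RSEM, also named in the processing notes, served for TPM values that were not used here. The deposited signal is thus a DESeq2-normalized count: a gene's reads over the size factor of that library. Whole reads could be recovered for 100% of values, within 0.1 of a read (11382573 to 19906694 reads per mouse), and counting error is larger in genes with few reads, such as Ncf4.

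Of the genes, 14845 reached 10 normalized counts in 4 or more mice and were tested, and 5563 were left out. Values were taken as log2(normalized count + 1), which understates the change of low genes, and fitted by limma 3.58.1 (lmFit, then eBayes with its trend option, in R 4.3.3) as 4 group means. All tests were two-sided, with Benjamini-Hochberg adjustment over the genes tested. The members were also compared by exact permutation tests over mice. Alternatives were a pseudocount of 4, no filter, only the groups compared, array quality weights, TMM scaling, the quasi-likelihood test of edgeR 4.0.16, the Wald test of DESeq2 1.42.0, stricter thresholds (adjusted p under 0.05, or a fold of 1.5), macrophage, adipocyte, smooth muscle or clock scores as a covariate, and each mouse left out. Leaving out the 2 mice of highest adipocyte score was added after seeing the data. Simulated data for Ang II against saline in IKKβ+/+ mice held 200 changed genes among 14355. Of the 200, limma called 156 (78%), along with 18 unchanged genes. The share called at fold changes as small as those of the members with Ang II in IKKβ+/+ mice was not tested.

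The members and the gene lists were chosen with earlier results of these data known. All members were named, as were pathway genes past the threshold (up to 4 a list) and, for each member, the 3 genes of highest r over mice with a mean of at least 50 normalized counts, leaving out unnamed gene models. A gene that these rules name is not reported here. Promoters came from RefSeq (GRCm38.p6), and lengths from GENCODE transcripts. Whether mice of a group came from separate litters or cages is not stated in the labels.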

Additional observations from a re-analysis of the deposited data

Results flagged for a closer look

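Sod3 in Ang II-treated IKKβ-/- mice was flagged because mouse X2383, with 11848 normalized counts, lay far from the other 4 mice (6654 to 8037). Its gap to the nearest mouse was 0.734 of the range of the group, above the critical value of 0.71 for 5 samples. The 9 members were examined in 4 groups each, 36 in all, of which chance alone would flag about 1.8, and 1 was flagged. The cause was not tested.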

How the results depend on the processing

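No paired analysis was possible because the groups share no replicate numbers. Over 45 results (9 members in 5 comparisons) and 1386 alternative values, 1275 kept their direction and their side of the threshold, 21 newly passed, 8 no longer passed and 82 changed sign, in 24 of the results. Values below are log2 fold changes, and the causes of these changes were not tested. Ncf4 had the fewest reads of the members, 4 to 59 per mouse.

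With Ang II in IKKβ+/+ mice, the number of members past the threshold went from 0 to 1 with DESeq2 (Cybb), with array quality weights, the macrophage score, only the groups compared or without the 2 mice of highest adipocyte score (Ncf1), and was 0 to 1 with each mouse left out (1 without X2352, X2373 or X2380, through Cybb, or X2384, through Ncf1). With Ang II in IKKβ-/- mice it went from 0 to 1 (Cat) with array quality weights, TMM scaling, edgeR and DESeq2, and was 0 to 1 with each mouse left out (1 without X2380, X2383 or X2386). Between genotypes with saline it went from 1 to 2 with array quality weights, to 3 with the smooth muscle score, and to 0 with the macrophage, adipocyte or clock score or at an adjusted p under 0.05, and was 0 to 1 with each mouse left out. Between genotypes with Ang II it was 0 to 1 with each mouse left out (1 without X2380, through Ncf4, or X2383, through Sod3). For the difference of the Ang II effects it was 0 under every alternative run. Over all genes, the number past the threshold was 1286, 785, 812, 19 and 0 in the 5 comparisons in this order, 431 to 1918, 433 to 1082, 24 to 1727, 0 to 553 and 0 to 79 with each mouse left out, 1887, 1164, 1437, 521 and 279 with DESeq2, 818, 869, 74, 505 and 0 with the macrophage score, 1450, 6, 159, 0 and 0 with the adipocyte score, 290, 1038, 1740, 2 and 0 with the smooth muscle score, 557, 5, 0, 0 and 0 with the clock score, 2074, 878, 1902, 15 and 76 with array quality weights, and 638, 412, 136, 0 and 0 at an adjusted p under 0.05. With only the groups compared it was 1897, 293, 1347 and 1 in the 4 group comparisons, without the 2 mice of highest adipocyte score 1418, 271, 827, 1 and 0, with a fold above 1.5 752, 574, 504, 14 and 0, and with edgeR 1373, 722, 835, 16 and 3.

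With Ang II in IKKβ+/+ mice, the sign changed with the smooth muscle score for Cyba (0.028), Sod1 (0.18), Sod3 (-0.016) and Cat (0.26), with the macrophage score for Sod1 (0.046) and Cat (0.033), and with the clock score for Sod1 (0.0083). In IKKβ-/- mice it changed with array quality weights for Ncf4 (0.090), Sod1 (0.053) and Sod2 (0.024), with the adipocyte score for Ncf4 (0.14) and Cat (-0.060), and with the clock score for Cybb (0.12), Ncf4 (0.24), Sod1 (0.051) and Sod2 (0.049). Between genotypes with saline it changed for Nox4 with array quality weights (0.042), the macrophage score (0.040) and the smooth muscle score (0.085), for Sod2 with array quality weights (-0.0032) and the clock score (-0.00072), and for Cat with the adipocyte score (0.12). Between genotypes with Ang II it changed for Cyba with the smooth muscle score (-0.013) and without the 2 mice of highest adipocyte score (-0.021), and for Sod2 with array quality weights (0.013), edgeR (0.0073), DESeq2 (0.0034) and the macrophage score (0.025). For the difference of the Ang II effects it changed for Cyba with the macrophage (-0.015), adipocyte (-0.091) and smooth muscle (-0.22) scores and without the 2 mice (-0.10), for Sod1 with array quality weights (0.15), TMM scaling (0.011) and the clock score (0.043), for Sod2 with array quality weights (0.016), and for Sod3 with the adipocyte (0.20) and smooth muscle (0.19) scores and without the 2 mice (0.090).

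With each mouse left out, signs changed with Ang II in IKKβ+/+ mice for Ncf4 (-0.022 to 0.28), Sod1 (-0.094 to 0.039) and Cat (-0.091 to 0.030), and in IKKβ-/- mice for Cyba (-0.14 to 0.0065), Cybb (-0.13 to 0.060), Ncf1 (-0.011 to 0.29), Ncf4 (-0.46 to 0.22), Sod1 (-0.13 to 0.033), Sod2 (-0.084 to 0.042) and Sod3 (-0.058 to 0.15). Between genotypes they changed with saline for Nox4 (-0.13 to 0.064) and Cyba (-0.013 to 0.12) and with Ang II for Sod2 (-0.070 to 0.056), and in the difference of the effects for Cyba (-0.017 to 0.15), Ncf4 (-0.60 to 0.073), Sod1 (-0.11 to 0.058) and Sod3 (-0.18 to 0.023).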
